A study of Mus musculus with 4 samples.

Results

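Sfmbt2, Gab1, Slc38a4, Jade1 and Smoc1 are mouse genes that are expressed from the paternal allele in extraembryonic tissue by noncanonical imprinting. These 5 genes were followed by symbol among the 55602 genes of the bulk count table and the 54750 genes of the allelic count table, and all 5 were counted in both and passed the filters on low counts. In the deposited annotation (GRCm38), Sfmbt2 (ENSMUSG00000061186.15) is at chr2:10370510-10595253 on the plus strand, Gab1 (ENSMUSG00000031714.9) at chr8:80764438-80880519 on the minus strand, Slc38a4 (ENSMUSG00000022464.14) at chr15:96994820-97055956 on the minus strand, Jade1 (ENSMUSG00000025764.14) at chr3:41555731-41616864 on the plus strand and Smoc1 (ENSMUSG00000021136.13) at chr12:81026808-81186414 on the plus strand. Counts cover the exons of each gene. The 5 genes were named for their imprinting in the placenta and not for any value measured here, although earlier results of these data were known. The question was whether both of their alleles are used in differentiating neural cells, and whether their level or allele usage differs once ZFP57 is lost.

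The cells were JB1, male ESCs from a cross of a JF1 mother with a C57BL/6 (B6) father, taken through a corticogenesis protocol and harvested at day 12, with cyclopamine at 1 µM from day 2 to day 10. There were 2 wild-type and 2 Zfp57-/- replicates, with the same cross, sex, protocol and drug in all 4. The Zfp57-/- cells are a JB1-derived line, so that loss of the gene and the history of that line cannot be told apart. Only this direction of the cross was sequenced, and JF1 therefore always stands for the maternal and B6 for the paternal allele. A parental effect and a strain effect on an allele cannot be told apart in these data. Counts per library ran from 7663520 to 10337082 in bulk and from 2837013 to 3826604 in the allelic table. The count of Zfp57 itself was 392 and 249 in wild-type libraries but 158 and 144 in Zfp57-/- libraries (log2 fold change -1.19, edgeR adjusted p = 0.0225). The study detected Zfp57 RNA with primers outside the deletion, and the gene count here was not split by exon, so the remaining counts do not check the deleted part.

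In canonical imprinting, DNA methylation laid down in one germline marks the imprinting control region (ICR) of a gene cluster, and ZFP57 binds the methylated hexamer TGCCGC and recruits TRIM28 to keep that methylation after fertilization. In noncanonical imprinting, the maternal allele is instead silenced by H3K27me3 inherited from the oocyte. This silencing is kept in the trophoblast and other extraembryonic lineages, where DNA methylation takes it over, and it is generally lost in the embryo proper. SFMBT2 is a Polycomb group protein with MBT domains, GAB1 an adaptor that links receptor tyrosine kinases to PI3K and SHP2, SLC38A4 a sodium-coupled neutral amino acid transporter, JADE1 a subunit of the HBO1 histone acetyltransferase complex, and SMOC1 a secreted calcium-binding protein of the SPARC family.

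The promoters are shown because the study turns on the ZFP57 hexamer. RefSeq (GRCm38.p6) gave 11 windows of 300 bases, from 250 before to 50 after a start site, for 4 of the 5 genes. Of these 11 windows, 0 held TGCCGC on either strand (GCGGCA on the reverse), beside 3813 of all 32851 windows, or 11.6%. This says only that these letters are not in these windows. The paper gives the hexamer as T/GGCCGC, and its other form, GGCCGC, was not counted. A Jade1 window not printed here (chr3:41563501-41563750, plus strand) holds GGCCGC. Below are the 250 bases before the start site nearest to the annotated gene start, 5′ to 3′ on the gene's strand, with CpG dinucleotides in capitals, for Sfmbt2 (chr2:10370201-10370450, plus strand), Gab1 (chr8:80880520-80880769, minus strand), Slc38a4 (chr15:97055957-97056206, minus strand) and Jade1 (chr3:41555484-41555733, plus strand). The last one is Mest, a canonical imprinted gene, upstream of a start site inside its annotated gene (chr6:30737800-30738049, plus strand), where the capitals mark the hexamer on the reverse strand, present 2 times. This Mest window was not picked by the rule used for the other genes. Another Mest window, nearer to the annotated gene start (chr6:30733256-30733505, plus strand), holds the hexamer 0 times.
Sfmbt2: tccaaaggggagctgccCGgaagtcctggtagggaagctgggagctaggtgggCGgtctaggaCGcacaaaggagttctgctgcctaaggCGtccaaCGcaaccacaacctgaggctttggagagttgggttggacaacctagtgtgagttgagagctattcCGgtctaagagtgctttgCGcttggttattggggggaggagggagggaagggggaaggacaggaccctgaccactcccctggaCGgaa
Gab1: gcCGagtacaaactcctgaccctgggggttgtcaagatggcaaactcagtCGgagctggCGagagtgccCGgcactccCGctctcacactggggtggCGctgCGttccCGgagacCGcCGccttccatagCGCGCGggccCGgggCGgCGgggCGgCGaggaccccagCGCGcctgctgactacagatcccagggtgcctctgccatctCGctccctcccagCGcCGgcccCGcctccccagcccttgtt
Slc38a4: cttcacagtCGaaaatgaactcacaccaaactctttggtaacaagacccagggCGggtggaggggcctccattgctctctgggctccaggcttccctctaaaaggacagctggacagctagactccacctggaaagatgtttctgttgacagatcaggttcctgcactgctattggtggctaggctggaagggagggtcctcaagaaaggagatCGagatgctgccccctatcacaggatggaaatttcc
Jade1: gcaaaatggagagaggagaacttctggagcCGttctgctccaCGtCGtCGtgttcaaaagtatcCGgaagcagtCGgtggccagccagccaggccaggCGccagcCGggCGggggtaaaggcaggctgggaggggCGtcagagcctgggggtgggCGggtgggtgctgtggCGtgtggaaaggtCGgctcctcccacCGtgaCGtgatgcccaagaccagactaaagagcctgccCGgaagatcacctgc
Mest: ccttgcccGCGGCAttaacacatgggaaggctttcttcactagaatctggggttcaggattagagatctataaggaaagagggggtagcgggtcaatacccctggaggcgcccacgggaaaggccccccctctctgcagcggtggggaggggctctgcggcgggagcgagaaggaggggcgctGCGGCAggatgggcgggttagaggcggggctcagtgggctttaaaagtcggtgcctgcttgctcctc
CpG content differed widely between the genes, from 3 CpGs in these 250 bases at Slc38a4 and 8 at Sfmbt2 to 16 at Jade1 and 24 at Gab1. The other start sites differed too: over their whole windows, Jade1 had 14 to 38 CpGs and Slc38a4 had 5 at each of its 3.

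All 5 genes were expressed in wild-type cells. On the scale of counts per exon length and library size (FPKM), Slc38a4 was at 23.7 ± 4.21 (SD, n = 2), Smoc1 at 20.8 ± 1.72, Jade1 at 18.4 ± 2.23, Gab1 at 12.3 ± 0.574 and Sfmbt2 at 4.58 ± 1.61. The libraries of Slc38a4 and Smoc1, and those of Smoc1 and Jade1, overlapped in level, whereas Gab1 lay below Jade1 and above Sfmbt2 in both libraries. In Zfp57-/- cells the order became Jade1 (52.5 ± 4.30 FPKM), Slc38a4 (48.5 ± 2.30), Gab1 (16.9 ± 1.96), Smoc1 (13.4 ± 3.68) and Sfmbt2 (5.50 ± 1.05). The first pair and the libraries of Gab1 and Smoc1 overlapped, and Sfmbt2 was again below all others.

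Jade1 and Slc38a4 rose in Zfp57-/- cells, while Gab1, Smoc1 and Sfmbt2 did not pass the test. The values below are counts normalized for library size by TMM. Of the 5 genes, 2 were called higher and 0 lower by edgeR's quasi-likelihood test at an adjusted p of 0.05, and 4 had an unadjusted p under that value. Over all 19995 genes tested, 13% were called higher and 14.6% lower. For the 5 genes the median log2 fold change was 0.46, and for all genes tested it was -0.01.

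Jade1 was at 1338 and 1589 in the wild-type replicates and at 3943 and 4428 in the Zfp57-/- replicates (1463 ± 177 against 4185 ± 343, SD, n = 2 each). The groups were far apart, with a log2 fold change of 1.52 (SE 0.20, 95% interval 1.08 to 1.96) and an edgeR adjusted p of 0.000437. Leaving out any one library kept Jade1 past the threshold.

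Slc38a4 was at 1068 and 829 in wild-type and at 2007 and 1876 in Zfp57-/- replicates (948 ± 168 against 1941 ± 92.1). The groups did not overlap. The log2 fold change was 1.03 (SE 0.20, 95% interval 0.58 to 1.49), with an edgeR adjusted p of 0.00453, which became 0.069 without Zfp57-/- replicate 1.

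Gab1 was at 565 and 604 in wild-type and at 740.3 and 873 in Zfp57-/- replicates, without overlap (584 ± 27.4 against 806 ± 93.5). Its log2 fold change of 0.46 (SE 0.19, 95% interval 0.04 to 0.89) missed the threshold, with an edgeR adjusted p of 0.0995. The log2 fold change was 0.39 without wild-type replicate 1 and 0.52 without wild-type replicate 2. It was 0.58 without Zfp57-/- replicate 1 and 0.34 without Zfp57-/- replicate 2.

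Smoc1 had the opposite sign. It was at 643 and 723 in wild-type and at 353 and 524 in Zfp57-/- replicates, again without overlap (683 ± 56.5 against 438 ± 121). The log2 fold change was -0.64 (SE 0.23, 95% interval -1.15 to -0.13), with an edgeR adjusted p of 0.0623, just over the threshold. The log2 fold change was -0.75 without wild-type replicate 1 and -0.55 without wild-type replicate 2. Without Zfp57-/- replicate 1 it was -0.38, and without Zfp57-/- replicate 2 it was -0.95.

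Sfmbt2 had the widest spread of the 5 genes between wild-type replicates relative to its mean, at 489.7 and 295 in wild-type against 407 and 534 in Zfp57-/- cells, and the groups overlapped (392 ± 138 against 471 ± 89.9). The log2 fold change of 0.27 (SE 0.26, 95% interval -0.32 to 0.86) had an edgeR adjusted p of 0.494. It was 0.65 without wild-type replicate 1 and -0.05 without wild-type replicate 2. A large intronic miRNA cluster lies in Sfmbt2, and 119 annotated genes share its strand, none with over 15 counts summed over the 4 libraries.

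These directions depend on what is held constant. With Actb as the scale, the median of all genes moved to -0.68, and 0 of the 5 genes passed. Of all 19995 genes, 486 were then called higher and 2994 lower, against 2607 and 2915 in the main fit. Jade1 was then at 0.87 (edgeR adjusted p = 0.277) and Slc38a4 at 0.29 (adjusted p = 0.755), while Gab1 and Sfmbt2 turned to -0.21 and -0.54. Relative to the median of all genes under that scale, Jade1 was at 1.55 and Slc38a4 at 0.97.

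**Figure D1:**
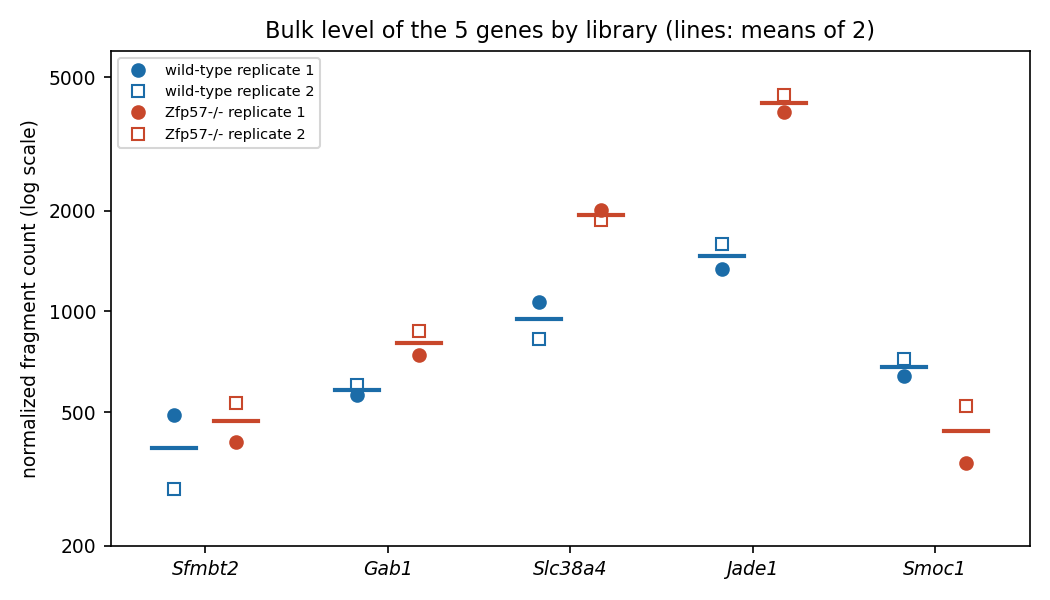
Normalized fragment counts (log scale) of the 5 genes in each library, with wild-type in blue, Zfp57-/- in red, replicate 1 filled, replicate 2 open and the mean of each genotype as a line. Jade1 and Slc38a4 stand apart between genotypes, at 3943 and 4428 against 1338 and 1589 and at 2007 and 1876 against 1068 and 829, whereas the Sfmbt2 libraries overlap.

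The libraries of the genotypes also differed in cell type markers. All 8 pluripotent cell markers were called higher in Zfp57-/- cells, where their summed normalized count was 13986 and 12226, against 42.9 and 76.9 in wild-type cells. Pou5f1, the core pluripotency factor, had a count of 1 and 6 in wild-type libraries but 2747 and 2286 in Zfp57-/- libraries, and Nanog, another pluripotency factor, had 0 in both wild-type replicates. Of 7 neural markers, 6 were called lower and 0 higher, with sums of 15115 and 17889 in wild-type libraries against 2859.5 and 2699 in Zfp57-/- libraries. Among 10 tested of 14 trophoblast markers, 5 were called higher and 1 lower. Their sum was 269 to 506 in wild-type and 906 to 942 in Zfp57-/- cells, mostly through Eomes, a T-box factor also found in mesendoderm, at 13 and 7 against 329 and 433 counts. Also called higher were Tfap2c (42 and 134 against 288 and 239 counts) and Krt7 (30 and 51 against 78 and 118). So were Gata3 (10 and 17 against 44 and 38) and Gcm1 (0 and 0 against 5 and 10). Tpbpa was called lower (91 and 129 against 51 and 36). The count of the trophoblast factor Elf5 never exceeded 2, the placental hormone gene Prl3b1 had 2, 1, 0 and 0, and Syna was at 0 in all 4. Of 10 primitive and visceral endoderm markers, 1 was called higher and 1 lower, with sums of 7580 to 9285 and 8400 to 11772. Jade1, Slc38a4 and the pluripotent cell markers thus moved with genotype together, and the part of these markers in the level changes was not tested. In bulk samples, fewer cells of a type and less RNA per cell cannot be told apart.

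Both alleles of all 5 genes were read in wild-type cells. The allelic ratio is JF1/(JF1 + B6) reads, so that 0.5 is equal use, and the study took a ratio up to 0.33 as paternal and one from 0.67 up as maternal expression. In wild-type cells 5 of 5 mean ratios lay between these limits, as did 86% of all genes tested. In Zfp57-/- cells 3 of 5 did, beside 86.6% of all genes, with Sfmbt2 and Gab1 under the lower limit. Both were under it in Zfp57-/- replicate 1, at 0.198 and 0.296, but over it in replicate 2, at 0.346 and 0.342. Genes with a B6 excess made up 9.26% of the 10977 genes tested in wild-type cells and genes with a JF1 excess 14.3%. By edgeR's test across the alleles, Sfmbt2 and Gab1 were called with more B6 and Slc38a4 with more JF1 reads in wild-type cells. In Zfp57-/- cells Sfmbt2, Gab1 and Jade1 were called with more B6 reads, beside 12.5% of all genes.

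Sfmbt2 had the lowest ratio of the 5 in both genotypes. Its JF1 and B6 reads were 86 and 138 in wild-type replicate 1 and 63 and 116 in replicate 2, which gave ratios of 0.384 (Wilson 95% interval 0.323 to 0.449) and 0.352 (0.286 to 0.424). B6 exceeded JF1 in both libraries. The log2 of JF1 over B6 was -0.77 (SE 0.19, edgeR adjusted p = 0.000705), a B6 level 1.71-fold that of JF1, and 6.47% of tested genes had a lower mean ratio. In Zfp57-/- replicates the reads were 42 and 170, then 111 and 210, and the ratios 0.198 (0.150 to 0.257) and 0.346 (0.296 to 0.399). The log2 difference was -1.35 (SE 0.18, edgeR adjusted p = 1.2e-09). These ratios differed from each other by more than counting error (two-sided Fisher's exact test, p = 0.000202, adjusted p = 0.00202 over 10 such tests, 1 for each gene and genotype). Zfp57-/- replicate 1 lay far below both wild-type libraries, whereas the interval of replicate 2 overlapped theirs.

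Gab1 had 91 JF1 and 142 B6 reads in wild-type replicate 1 and 129 and 186 in replicate 2. The ratios were 0.391 (Wilson 95% interval 0.33 to 0.454) and 0.410 (0.357 to 0.465), and the log2 difference was -0.58 (SE 0.15, edgeR adjusted p = 0.00174). The Zfp57-/- reads were 101 and 240, then 151 and 290, with ratios of 0.296 (0.250 to 0.347) and 0.342 (0.3 to 0.388). Both were below both wild-type libraries. The log2 difference was -1.08 (SE 0.14, edgeR adjusted p = 3.9e-10). Without either wild-type library the wild-type calls weakened, with adjusted p = 0.0957 without replicate 1 and 0.0611 without replicate 2 for Gab1, and 0.0681 without replicate 2 for Sfmbt2. DESeq2 called 0 of the 5 genes in wild-type cells, with adjusted p = 0.147 for Sfmbt2 and 0.164 for Gab1, and the same 3 genes in Zfp57-/- cells. Over all 10977 genes, DESeq2 called fewer than edgeR, 1179 against 2588 in wild-type and 745 against 2396 in Zfp57-/- cells. Those with a B6 excess in wild-type cells were 246 by DESeq2 and 1016 by edgeR.

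Jade1 had more B6 than JF1 reads in every library, was called only in Zfp57-/- cells and was not called between genotypes (edgeR adjusted p = 0.277). It had 192 JF1 and 242 B6 reads, then 297 and 325, in the wild-type replicates, with ratios of 0.442 (0.396 to 0.489) and 0.477 (0.438 to 0.517). The log2 difference was -0.22 (SE 0.10, 95% interval -0.43 to -0.01, edgeR adjusted p = 0.129). With more reads in Zfp57-/- cells, 624 and 893, then 739 and 983, the ratios were 0.411 (0.387 to 0.436) and 0.429 (0.406 to 0.453). The log2 difference there was -0.46 (SE 0.08, edgeR adjusted p = 1.4e-06), a B6 level 1.38-fold that of JF1.

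Slc38a4 was the only one of the 5 with more JF1 than B6 reads in every library. The reads were 244 and 220, then 264 and 193, in wild-type and 524 and 469, then 504 and 495, in Zfp57-/- cells. The wild-type ratios were 0.526 (0.480 to 0.571) and 0.578 (0.532 to 0.622), with a log2 difference of 0.30 (SE 0.12, edgeR adjusted p = 0.0481). This call did not survive leaving out either wild-type library, with adjusted p = 0.0507 without replicate 1 and 0.744 without replicate 2. The Zfp57-/- ratios were 0.528 and 0.505, with a log2 difference of 0.09 (SE 0.09, 95% interval -0.09 to 0.28, edgeR adjusted p = 0.54).

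Smoc1 had 156 JF1 and 180 B6 reads, then 221 and 245, in wild-type cells. The ratios were 0.464 (0.412 to 0.518) and 0.474 (0.429 to 0.520), with a log2 difference of -0.17 (SE 0.14, 95% interval -0.44 to 0.10, edgeR adjusted p = 0.421). The Zfp57-/- reads were 77 and 115, then 171 and 161, and the ratios 0.401 (0.334 to 0.472) and 0.515 (0.461 to 0.568), on either side of both wild-type values. The log2 difference was -0.18 (SE 0.16, 95% interval -0.49 to 0.13, edgeR adjusted p = 0.465). As ratios, the wild-type 95% intervals of the fit ran from 0.424 to 0.516 for Smoc1, 0.427 to 0.498 for Jade1, 0.512 to 0.591 for Slc38a4, 0.352 to 0.452 for Gab1 and 0.311 to 0.431 for Sfmbt2. Only that of Sfmbt2 reached below 0.33. In Zfp57-/- cells the intervals of Sfmbt2 (0.235 to 0.333) and Gab1 (0.281 to 0.364) both included 0.33.

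**Figure D2:**
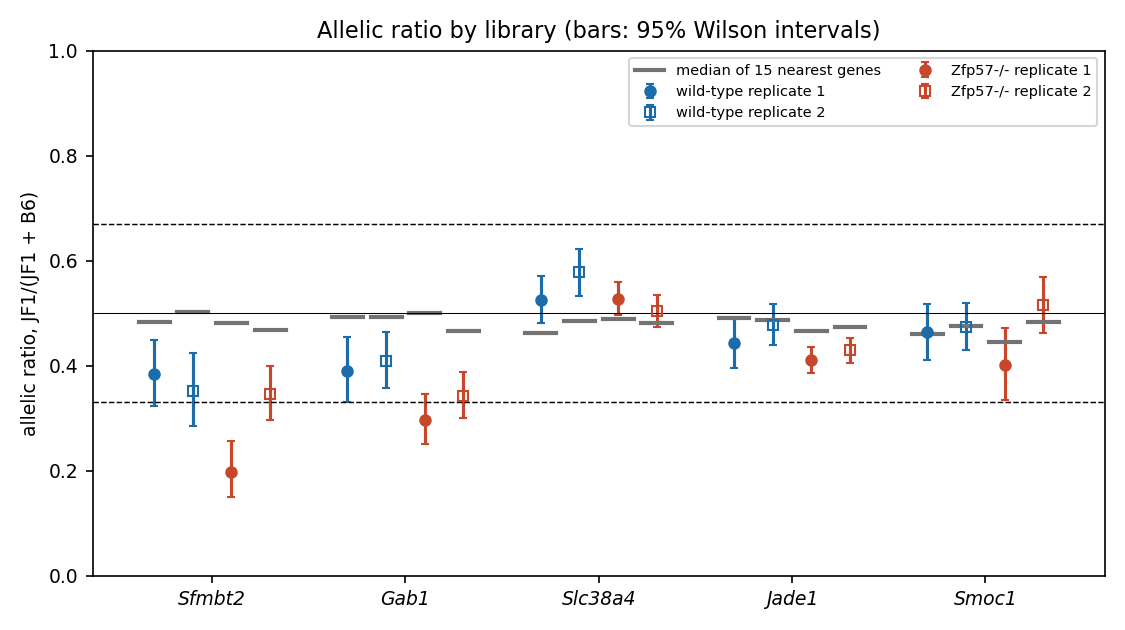
Allelic ratio JF1/(JF1 + B6) in each library with its Wilson 95% interval, which covers counting error only. Grey ticks give the median ratio of the 15 nearest genes and dashed lines the limits of 0.33 and 0.67. Sfmbt2 and Gab1 lie below the median of their 15 nearest genes in all 4 libraries, and Zfp57-/- replicate 1 of Sfmbt2, at 0.198, lies lowest.

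Ratios were set beside the surrounding genome, to show whether a ratio was shared with neighbouring genes. The median ratio of each gene's chromosome was between 0.477 and 0.511 in either genotype. Among genes whose allelic reads numbered at least 10 in each library, the 15 nearest had medians of 0.495 around Sfmbt2, 0.504 around Gab1, 0.467 around Slc38a4, 0.489 around Jade1 and 0.465 around Smoc1 in wild-type cells. These genes lay up to 3458 kb from Sfmbt2 and 2836 kb from Gab1, and their single ratios spread widely. In wild-type cells they ran from 0.349 to 0.551 around Sfmbt2 and from 0.241 to 0.803 around Gab1, and both members lay inside. In Zfp57-/- cells they ran from 0.365 to 0.747, above Sfmbt2, and from 0.247 to 0.529, around Gab1. With the local median as the centre, the wild-type ratio was 0.372 for Sfmbt2, 0.396 for Gab1, 0.47 for Jade1, 0.504 for Smoc1 and 0.584 for Slc38a4. Centred in the same way, the Zfp57-/- ratio was 0.305 for Sfmbt2, 0.34 for Gab1, 0.454 for Jade1, 0.49 for Smoc1 and 0.528 for Slc38a4, so that Gab1 came to lie just inside the limit of 0.33.

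The closest tested neighbours differed more than the local medians. Both flanks of Sfmbt2 also carried fewer JF1 than B6 reads in wild-type cells. Itih5 had a ratio of 0.302 ± 0.0381 (SD, n = 2, 116 reads, edgeR adjusted p = 0.0177) and Pfkfb3, which encodes a regulator of glycolysis, 0.349 ± 0.0206 (602 reads, edgeR adjusted p = 3.0e-06). Pfkfb3 was also low in Zfp57-/- cells at 0.365 ± 0.00475 (edgeR adjusted p = 0.000949), and Itih5 had only 21 reads. Beside Gab1, Smarca5 was even in wild-type cells at 0.505 ± 0.0187 (90 reads). Usp38, a deubiquitinase on the other side of Gab1, was at 0.767 ± 0.0134 in wild-type (231 reads) and 0.510 ± 0.0365 in Zfp57-/- cells (251 reads). Its ratio differed between genotypes (edgeR adjusted p = 9.0e-05). Next to Slc38a4, its paralog Slc38a2 leaned to B6 in both genotypes, at 0.441 ± 0.0192 and 0.432 ± 0.0173 (edgeR adjusted p = 3.2e-05 and 1.4e-06). Amigo2 on the other side had only 43 and 42 reads. Around Jade1, Pgrmc2 was at 0.489 ± 0.00171 and Sclt1 at 0.352 ± 0.00267 (edgeR adjusted p = 0.000593) in wild-type cells. Around Smoc1, Srsf5 was at 0.429 ± 0.0441 (edgeR adjusted p = 0.00173) and Slc8a3, with 49 reads, at 0.513 ± 0.0452.

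Whether the allele balance differed between genotypes was tested as the difference of the log2 allele terms, Zfp57-/- minus wild-type. Of the 5 genes, 0 were called by edgeR, beside 14.5% of all genes tested. DESeq2 called 0 of the 5, beside 835 of 10977 genes. By edgeR, 2 of the 5 had an unadjusted p under 0.05. These were Sfmbt2, at -0.58 (SE 0.26, 95% interval -1.10 to -0.06, unadjusted and adjusted edgeR p of 0.0298 and 0.157), and Gab1, at -0.50 (SE 0.21, 95% interval -0.91 to -0.09, unadjusted and adjusted edgeR p of 0.0173 and 0.104). Both shifted toward B6. Without Zfp57-/- replicate 2, Sfmbt2 was at -1.24 (edgeR adjusted p = 0.00131) and Gab1 at -0.67 (edgeR adjusted p = 0.0348), and both passed. Without Zfp57-/- replicate 1 they were at -0.15 (edgeR adjusted p = 0.853) and -0.36 (edgeR adjusted p = 0.373). With allele values centred on the median of the gene's chromosome, the difference of Gab1 was -0.33 (95% interval -0.74 to 0.09, unadjusted and adjusted edgeR p of 0.12 and 0.398). The other differences were -0.24 for Jade1 (95% interval -0.50 to 0.02), -0.21 for Slc38a4 (-0.50 to 0.09) and -0.01 for Smoc1 (-0.41 to 0.40). The median over all genes tested was -0.06. A p that missed the threshold does not show an equal balance in both genotypes, and the intervals give the shifts that these reads still allow.

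For scale, 12 canonical imprinted genes, chosen because earlier results of these data gave them an allelic bias, are described without a test of the list. All 12 lay outside the limits in wild-type cells, and their genotype differences had absolute values from 3.90 to 8.78 on the log2 scale, against at most 0.58 for the 5 placenta-type genes. The ratio of Mest went from 0.0141 ± 0.00723 in wild-type to 0.482 ± 0.0494 in Zfp57-/- cells. Peg3, which encodes a zinc finger protein, went from 0.0148 ± 0.0145 to 0.459 ± 0.00755, Impact from 0.056 ± 0.0215 to 0.589 ± 0.0179, and Grb10, a maternally expressed adaptor, from 0.998 ± 0.000484 to 0.479 ± 0.00242. These 4 thus came from near 0 or 1 to between 0.33 and 0.67.

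**Figure D3:**
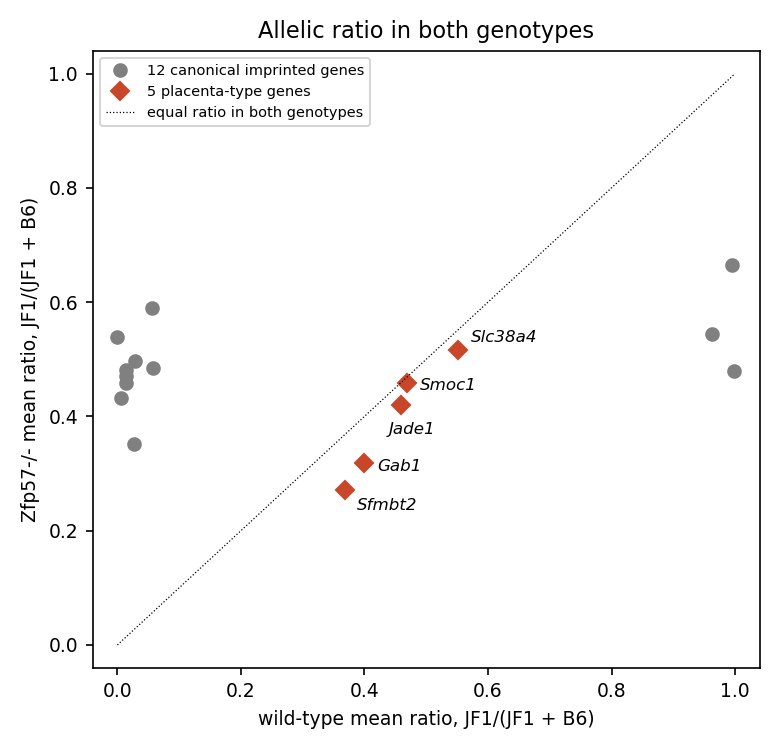
Mean allelic ratio JF1/(JF1 + B6) of 2 replicates in wild-type (x axis) and Zfp57-/- cells (y axis), with the 5 placenta-type genes as red diamonds, the 12 canonical imprinted genes as grey circles and equality as a dotted line. The diamonds lie below the line, from 0.368 (Sfmbt2) to 0.552 (Slc38a4) in wild-type cells, whereas the circles lie near 0 or 1 in wild-type cells.

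The level of each allele was then compared between genotypes with the library sizes of the bulk table. Of the 5 genes, 2 were called higher on the JF1 allele and 3 on the B6 allele, beside 11% and 16.7% of all genes tested. Both alleles of Jade1 rose. Its normalized JF1 reads were 223 and 266 in wild-type against 628 and 708 in Zfp57-/- cells, and its B6 reads 281 and 291 against 898 and 942. The log2 fold changes were 1.45 (SE 0.18, edgeR adjusted p = 0.000242) on JF1 and 1.69 (SE 0.18, edgeR adjusted p = 5.0e-05) on B6.

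Both alleles of Slc38a4 rose as well. JF1 reads went from 283 and 236 to 527 and 483 and B6 reads from 255 and 173 to 472 and 474. The log2 fold changes were 0.96 (SE 0.22, edgeR adjusted p = 0.00692) on JF1 and 1.15 (SE 0.22, edgeR adjusted p = 0.00212) on B6. Leaving out either Zfp57-/- library moved both over the threshold, with adjusted p from 0.066 to 0.147.

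For Gab1, the B6 allele went from 165 and 166 to 241 and 278, a log2 fold change of 0.65 (SE 0.21, edgeR adjusted p = 0.0363). This call was lost without either Zfp57-/- library, with adjusted p = 0.11 without replicate 1 and 0.221 without replicate 2. The JF1 allele was at 106 and 115 in wild-type and at 102 and 145 in Zfp57-/- cells, with a log2 fold change of 0.16 (SE 0.22, 95% interval -0.33 to 0.64, edgeR adjusted p = 0.635). Sfmbt2 passed on neither allele, with 0.50 (95% interval -0.34 to 1.35, edgeR adjusted p = 0.349) on B6 and -0.05 (95% interval -0.97 to 0.86, edgeR adjusted p = 0.939) on JF1. Smoc1 had nearly the same value on both alleles, -0.65 on JF1 (edgeR adjusted p = 0.131) and -0.66 on B6 (edgeR adjusted p = 0.113). The JF1 and B6 reads of a library come from the same culture, and with Actb as the scale 0 of the 5 genes passed on either allele. Of all 10977 genes, 112 on JF1 and 475 on B6 were then called higher, against 1209 and 1836 in the main fit.

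**Figure D4:**
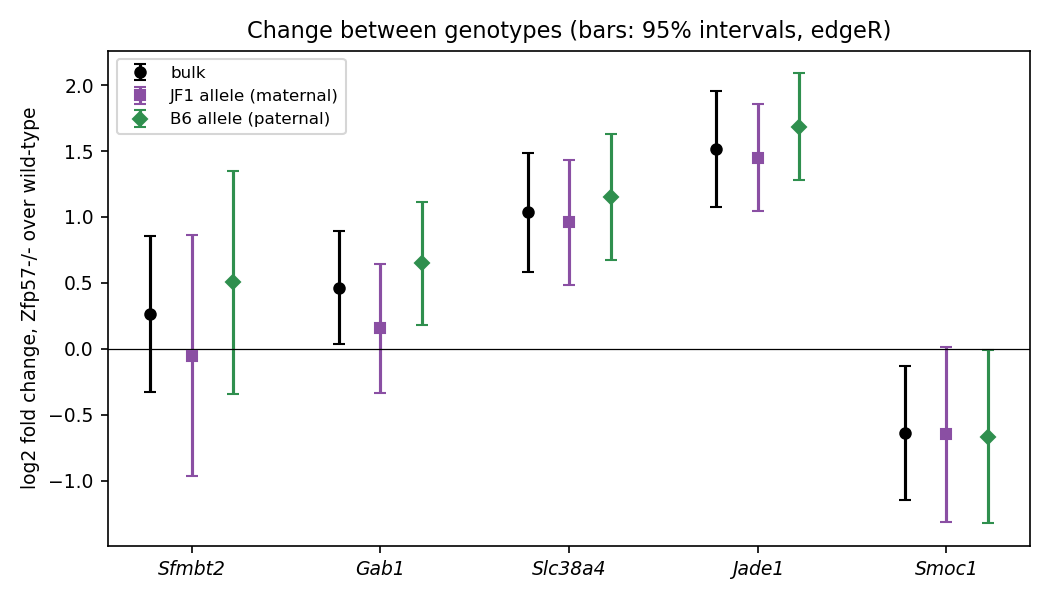
Log2 fold change of Zfp57-/- over wild-type cells with its 95% interval from edgeR, for the bulk count (black circles), the JF1 allele (purple squares) and the B6 allele (green diamonds). The intervals of Jade1 and Slc38a4 lie above 0 in all 3 readouts, and those of Sfmbt2 include 0 in all 3.

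Partners and relatives of the 5 genes moved in both directions. Over all 19995 genes tested, 13% were called higher and 14.6% lower, and the lists below were not tested against these shares. Among 8 genes of the HBO1 complex and JADE family, 2 were called higher and 0 lower. Jade2, a paralog of Jade1, rose by 2.30 on the log2 scale (34 and 30 against 155 and 175 counts, edgeR adjusted p = 0.000729), and Ing5, a PHD finger subunit of the complex, by 1.34 (edgeR adjusted p = 0.000655). The catalytic subunit gene Kat7 and the paralog Jade3 were not called. Of 8 tested SLC38 transporters, 1 was called higher and 1 lower: Slc38a7 rose by 1.01 (111 and 256 against 364 and 372 counts, edgeR adjusted p = 0.023), and Slc38a10 fell by 0.69 on the log2 scale (edgeR adjusted p = 0.0243). Slc38a1 and Slc38a2, which lie in the same cluster as Slc38a4, were not called. Of 10 GAB1 partners, only Sos1, a guanine nucleotide exchange factor for Ras, was called, at -0.73 (edgeR adjusted p = 0.0177). Of 7 SPARC family genes, Sparc, a collagen-binding matrix protein, rose by 1.26 (5877 and 20684 against 25349 and 36782 counts, edgeR adjusted p = 0.0383), while Sparcl1 at -2.61 (edgeR adjusted p = 0.000144) and the proteoglycan gene Spock3 at -2.25 (edgeR adjusted p = 0.0198) fell. Of 8 tested MBT domain genes and Yy1, L3mbtl2 rose by 1.29 (edgeR adjusted p = 0.00206), and Sfmbt1, the paralog of Sfmbt2, fell by 0.73 on the log2 scale (edgeR adjusted p = 0.0287), as did Mbtd1 and Scmh1. The wild-type libraries of Sparc and Slc38a7 lay far apart. The log2 fold change of Sparc was 0.69 without wild-type replicate 1 and 2.16 without wild-type replicate 2, and its call was lost without Zfp57-/- replicate 2 (edgeR adjusted p = 0.083) and in DESeq2 (adjusted p = 0.195). That of Slc38a7 was 0.63 and 1.49 without the same wild-type libraries, and its call was lost without either Zfp57-/- library (edgeR adjusted p = 0.095 and 0.0743).

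Of 14 PRC2 genes and H3K27 demethylases, 5 were called higher, 2 were called lower and 7 did not pass, beside 13% higher and 14.6% lower over all genes tested. Eed, the PRC2 subunit that reads H3K27me3, rose by 1.10 (495 ± 48.7 against 1059 ± 72.0 normalized counts, edgeR adjusted p = 0.0025), Phf19 by 2.79 (edgeR adjusted p = 0.00273), Epop by 1.79 (edgeR adjusted p = 0.00495) and the core subunit gene Suz12 by 0.78 (edgeR adjusted p = 0.0126). The catalytic subunit gene Ezh2 and the demethylase gene Kdm6b were the 2 lower ones. Of 11 DNA methylation and H3K9 factors, 3 were higher, 1 was lower and 7 did not pass. The de novo methyltransferase gene Dnmt3b rose by 3.08 (259 ± 44.1 against 2188 ± 223, edgeR adjusted p = 1.3e-05), and its cofactor gene Dnmt3l went from 2 and 8 to 1031 and 999 counts. Trim28, the corepressor recruited by ZFP57, rose by 0.90 (edgeR adjusted p = 0.0128), and Ehmt1, an H3K9 methyltransferase gene, fell by 0.66 on the log2 scale (edgeR adjusted p = 0.024). Of 6 other genes discussed with this class, 3 noncoding RNA genes rose from at most 5 counts in wild-type libraries, namely Platr4 (92 and 58 counts in Zfp57-/- cells), Platr20 (41 and 18) and Gm32885 (86 and 74). With Actb as the scale, 11 of the 15 higher calls given by name for these relatives and factors were lost, those of Dnmt3b, Dnmt3l, Platr4 and Gm32885 being kept. Over all genes, higher calls fell from 2607 to 486 under that scale. Without either Zfp57-/- library, some of these higher calls were lost, and all named lower calls but that of Sparcl1. Calls over all genes fell in these fits too. Ezh2 and Kdm6b were not examined in this way. The pluripotent cell markers also differed between the genotypes, and their part in these changes was not tested.

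The 2 genes most like each member over the 4 libraries, among 11731 genes with a mean normalized count of at least 50, are given by the root mean square difference of centred log2 values, as a description. They were St14 (0.0313) and Sat1 (0.0339) for Jade1, Fastkd2 (0.0361) and Rabggtb (0.0402) for Slc38a4, Fermt2 (0.0122) and Taf1c (0.0130) for Gab1, Rnf130 (0.0292) and Tmem185a (0.0294) for Smoc1, and Mpp7 (0.0543) and Pcdh7 (0.0664) for Sfmbt2.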

How the data were processed

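RNA-seq libraries of 2 wild-type and 2 Zfp57-/- replicates of day 12 JB1 cells were re-analysed from the tables of counts that the authors deposited. The authors used Trimmomatic 0.36 for trimming and STAR 2.5.4a for alignment to GRCm38 (mm10), and counted fragments per gene and strand with featureCounts (Subread 1.6.0). For the allelic counts, the authors masked the genome at the strain SNPs and split the reads with SNPsplit into JF1 and B6. Reads without a SNP are absent from the allelic counts, which made up 36.1 to 37.0% of the bulk counts. Both tables hold raw counts without normalization, and gene IDs were matched to symbols by a table of gene IDs (54721 of 55602 bulk genes).

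Genes with more than 8 counts over the 4 libraries were compared with edgeR 4.0.16 (robust quasi-likelihood, TMM), and DESeq2 1.42.0 served as an alternative (R 4.3.3, Python 3.11.15). For the alleles, autosomal genes were tested that reached 10 normalized allelic counts in each wild-type library, in a model of the 8 allele columns with library effects and a separate allele effect for each genotype, and a second fit compared each allele between genotypes. Calls were made at 0.05 after Benjamini-Hochberg adjustment over all genes tested. The study calls the replicates biological, but the sample labels do not name separate cultures, so p-values measure the spread between these samples. Wilson intervals (95%) cover counting error only. The members and gene lists were chosen with earlier results of these data known. From each list, at most the 4 genes with the smallest adjusted p were named with values, beside the nearest tested gene on each side of each member. Genes outside that rule (Nanog, Elf5, Gata3, Gcm1, Prl3b1, Syna, Jade3, Slc38a2, Ezh2, Kdm6b) were named after their values were seen. One gene of the neural marker list is not reported here. The scripts were tested on simulated data, and alternatives covered scaling, filters, test, threshold, centring, the replicate block and each library left out.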

Additional observations from a re-analysis of the deposited data

Results flagged for a closer look

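None of the 5 placenta-type genes differed in allele balance between genotypes at an adjusted p of 0.05 by edgeR with all 4 libraries, beside 14.5% of all genes tested. Of the 5, 2 were under 0.05 before adjustment. DESeq2 called 0 of them, beside 835 of 10977 genes. Among the other genes named, 6 did differ by edgeR. These include canonical imprinted genes chosen because earlier results of these data gave them an allelic bias, so their difference is no independent contrast. The genotype-by-allele differences (log2, Zfp57-/- minus wild-type) of the canonical imprinted genes were 6.00 for Mest, 5.87 for Peg3, 4.67 for Impact and -8.78 for Grb10. Of the genes next to the members, Usp38 beside Gab1 differed by -1.65 (edgeR adjusted p = 9.0e-05, DESeq2 adjusted p = 0.0546). Amigo2 beside Slc38a4 differed by 2.77 (edgeR adjusted p = 0.0191), on 43 wild-type and 42 Zfp57-/- reads, and this was lost when wild-type replicate 1, wild-type replicate 2 or Zfp57-/- replicate 2 was left out (adjusted p 0.0516, 0.342 and 0.257).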

How the results depend on the processing

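Among 70 recomputed counts of members called or within the ratio limits, 56 stayed within 1.5 times the reported value. The 2 bulk calls became 0 with Actb as the scale, under which 486 of 19995 genes were called higher, against 2607 in the main fit. The number of members called also moved when single libraries were left out. With upper-quartile scaling (edgeR adjusted p = 0.0428), no filter on low counts (0.022) or at least 10 counts in 2 libraries (0.0498), Smoc1 was also called lower. The 3 wild-type allele calls became 0 with DESeq2, which called 1179 of all 10977 genes against 2588 by edgeR. Their number also moved without single libraries. The 0 calls of the genotype-by-allele contrast ranged from 0 to 2, with 2 reached without Zfp57-/- replicate 2. The calls on the JF1 allele (2) and on the B6 allele (3) became 0 with Actb as the scale. Of all 10977 genes, 112 and 475 were then called higher, against 1209 and 1836 in the main fit. Without single libraries, the numbers of members called on each allele also moved. In Zfp57-/- cells, 3 to 5 ratios lay within the limits when a library was left out, and 5 without replicate 1. The cause of these changes was not tested.

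Signs turned as follows. With Actb as the scale, bulk Sfmbt2 was at -0.54 and Gab1 at -0.21, JF1 Gab1 at -0.51, B6 Sfmbt2 at -0.28 and B6 Gab1 at -0.031. Without single libraries, bulk Sfmbt2 ranged from -0.050 to 0.65, JF1 Sfmbt2 from -0.87 to 0.46 and JF1 Gab1 from -0.12 to 0.39. The Zfp57-/- allele difference of Smoc1 ranged from -0.58 to 0.087, its genotype-by-allele difference from -0.40 to 0.26 (0.070 when centred on the chromosome), and the Zfp57-/- allele difference of Mest from -0.31 to 0.10.

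The deviations of libraries that share a replicate number had a correlation of 0.133 (11736 genes), and the numbers, with 2 pairs and no batch named in the sample labels, do not pair the samples. With the replicate block, 6984 genes were called in bulk against 5522, and 3 of the 5 members against 2, Smoc1 being added at -0.66 (edgeR adjusted p = 0.00757). The block added Smoc1 on the JF1 (adjusted p = 0.0346) and B6 allele (0.0316) and left the numbers of members called in the allele comparisons at 3, 3 and 0. Leaving out a library leaves 1 sample in a genotype, which is assumed to vary like the other. Precision is limited by 179 to 1722 allelic reads per gene and library.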
